A study of Homo sapiens with 40 samples.

Results

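A group of 8 genes of pericellular proteolysis were followed through 40 RNA sequencing libraries of RKO, a human cell line established from a colorectal carcinoma. They were PLAU, PLAUR, PLAT, SERPINE2, MMP1, MMP14, TIMP1 and TIMP3, 8 of the 19962 genes in the deposited table of counts, matched by Ensembl identifier. PLAU was chosen by its measured counts, since it lay higher after induced knockout of either IGF2BP gene than in the control line. Its values in doxycycline-treated and solvent-treated cells are therefore a description here and carry no test. TIMP3 had no count in any library. The other 6 members were tested in every comparison, and PLAU was tested only between siRNA libraries.

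All cells carried Cas9 under a doxycycline-inducible promoter and GFP. Each line also expressed 2 guide RNAs and a blue fluorescent marker, delivered by lentivirus, and was sorted for that marker. The guides were directed against AAVS1, a non-coding control locus (sgAAVS1), IGF2BP2 (sgIGF2BP2) or IGF2BP3 (sgIGF2BP3). In each line Cas9 was induced with doxycycline (Dox, 250 ng/mL, 72 hours) in 4 libraries, and 4 libraries came from cells given the solvent DMSO. The sgIGF2BP2 and sgIGF2BP3 lines were also transfected, without Dox, with a non-targeting siRNA (siControl) or a pool of siRNAs against the gene that the guides target (siIGF2BP2 or siIGF2BP3; 75 nM, 48 hours), again with 4 libraries each. The sgAAVS1 line has no siRNA libraries here. All 10 groups received the nucleoside s4U (250 µM, 2 hours), which labels newly made RNA. The counts cover labelled and unlabelled RNA together. The 4 libraries of a group came from separate wells of a line, so p-values measure the spread between wells. For each gene that spread was estimated over all 10 groups together, and not within the line compared.

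PLAU encodes urokinase, a secreted serine protease that cleaves plasminogen to plasmin, and PLAUR encodes the membrane-anchored receptor that holds urokinase at the cell surface. PLAT encodes tissue plasminogen activator, and SERPINE2 encodes protease nexin-1, a serpin that inhibits urokinase, tissue plasminogen activator and thrombin. Plasmin degrades fibrin and matrix proteins and can activate secreted matrix metalloproteinases. MMP1 is a collagenase of fibrillar collagen, MMP14 is a membrane-bound metalloproteinase that activates MMP2, and TIMP1 and TIMP3 are inhibitors of metalloproteinases. Urokinase and its receptor are known from the invasive margin of colorectal tumours. IGF2BP2 and IGF2BP3 are RNA-binding proteins, known to bind many mRNAs and to affect their stability and translation.

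Of the 8 members, 6 had a window before a transcript start in the RefSeq promoter table (GRCh38.p14). MMP1, which also fell after siIGF2BP2, had no window. The sequences below are those of PLAU, MMP14 and TIMP1, the other 3 members called lower after siIGF2BP2. They run 5′ to 3′ on the coding strand, within the 250 bases before the start and outside all GENCODE exons of the gene, and capitals mark matches to GGGCGG on either strand, the core letters of the SP1 box.
PLAU, chr10:73910882-73911103 (+): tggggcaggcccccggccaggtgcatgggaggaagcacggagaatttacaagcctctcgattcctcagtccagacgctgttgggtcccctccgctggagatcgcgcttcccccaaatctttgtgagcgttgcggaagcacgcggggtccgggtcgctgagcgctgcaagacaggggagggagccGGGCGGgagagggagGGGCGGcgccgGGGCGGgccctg
PLAU, chr10:73910360-73910604 (+): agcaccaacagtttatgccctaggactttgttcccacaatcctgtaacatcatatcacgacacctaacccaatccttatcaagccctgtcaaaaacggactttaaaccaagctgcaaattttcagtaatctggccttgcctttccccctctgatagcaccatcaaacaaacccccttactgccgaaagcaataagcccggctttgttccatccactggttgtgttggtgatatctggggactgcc
MMP14, chr14:22836335-22836556 (+): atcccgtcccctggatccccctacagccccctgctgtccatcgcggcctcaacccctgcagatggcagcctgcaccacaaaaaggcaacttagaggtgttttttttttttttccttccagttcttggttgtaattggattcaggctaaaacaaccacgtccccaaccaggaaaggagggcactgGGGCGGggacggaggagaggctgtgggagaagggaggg
TIMP1, chrX:47582186-47582312 (+): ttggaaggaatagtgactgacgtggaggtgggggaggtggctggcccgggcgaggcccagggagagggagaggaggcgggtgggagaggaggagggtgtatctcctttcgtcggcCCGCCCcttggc
The first PLAU stretch held 3 matches, beginning 66, 51 and 40 bases before the start, and the stretch before the other PLAU start held 0. MMP14 and TIMP1 held 1 match each in the stretches shown. GGGCGG was found in 54.3% of the 21578 windows of 250 bases. The letters TGANTCA (the AP-1 site) and TATAAA (the TATA box), searched on both strands, were in 0 of these 4 windows and in 5.36% and 8.98% of all windows. Among members not printed, GGGCGG had 5 matches before TIMP3 and 0 before PLAUR. TGANTCA had 1 match in the 250 bases before PLAUR and 0 before TIMP3 and each SERPINE2 start. SERPINE2 held 1 match before its start at 224031478 and 2 before that at 224038640. Any link between these letters and the members' values was not tested.

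The libraries held between 10018181 and 24822807 counts (median 13468792), and 11428 genes passed the filter on low counts, 7 of the members among them. The sgIGF2BP2 Dox replicate 2 library stood apart from the other 3 of its group (chi-square per gene of 11.8 to 16.6, against a median of 2.27 over all 60 replicate pairs). The next highest values were those of sgIGF2BP2 siIGF2BP2 replicate 3 (5.64 to 6.42). Of 10 epithelial and colon markers, KRT8, KRT18, EPCAM and CDX2 averaged at least 1 CPM (TMM-normalised count, scaled to a common library size), whereas CDX1 and LGR5 had no count. None of 8 fibroblast and 5 endothelial markers averaged 1 CPM, and of 6 leukocyte markers CD68 did (median 2.15 CPM).

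The targeted genes were lower in the libraries labelled for them. IGF2BP2 lay at 85.3 ± 1.58 CPM (SD, n = 4) with DMSO and 33.9 ± 3.50 with Dox in sgIGF2BP2 cells, and at 108 ± 4.10 with siControl and 30.2 ± 1.08 with siIGF2BP2. IGF2BP3 lay at 180 ± 4.09 CPM with DMSO and 56.2 ± 3.62 with Dox in sgIGF2BP3 cells, and at 170 ± 4.78 with siControl and 24.8 ± 1.56 with siIGF2BP3. In sgIGF2BP2 cells IGF2BP3 also fell with Dox, by 0.25 on the log2 scale (SE 0.0405, adjusted p = 2.93e-06). In sgAAVS1 cells Dox left neither gene past the threshold, which is an adjusted p under 0.05 in edgeR's quasi-likelihood test.

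PLAU, the urokinase gene (ENSG00000122861, GRCh38 chr10:73909177-73917497, + strand), ranged from 8.97 to 24.1 CPM over the 40 libraries, on 101 to 403 counts. In sgAAVS1 cells the 4 DMSO libraries held 13.04, 12.6, 12.4 and 13.9 CPM and the 4 Dox libraries 8.97, 9.98, 9.03 and 11.97 CPM. In sgIGF2BP2 cells the DMSO libraries held 13.1, 12.7, 12.6 and 14.4 CPM and the Dox libraries 22.3, 22.3, 24.1 and 23.2 CPM. In sgIGF2BP3 cells the DMSO libraries held 11.2, 13.9, 14.2 and 12.7 CPM and the Dox libraries 18.2, 17.8, 14.7 and 19.8 CPM. Dox and DMSO libraries did not overlap in any of the 3 lines: Dox libraries were the lower ones in sgAAVS1 cells and the higher ones in the other lines. The log2 difference of Dox from DMSO was -0.38 (SE 0.0968) in sgAAVS1 cells, 0.80 (SE 0.0832) in sgIGF2BP2 cells and 0.44 (SE 0.0871) in sgIGF2BP3 cells. Against the sgAAVS1 difference, those of sgIGF2BP2 and sgIGF2BP3 cells were higher by 1.18 (SE 0.128) and 0.82 (SE 0.130). These are the values that chose the gene. Without sgIGF2BP2 Dox replicate 2 the sgIGF2BP2 value was 0.82. The 3 lines held similar PLAU with DMSO (means of 12.97 to 13.19 CPM).

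**Figure D1:**
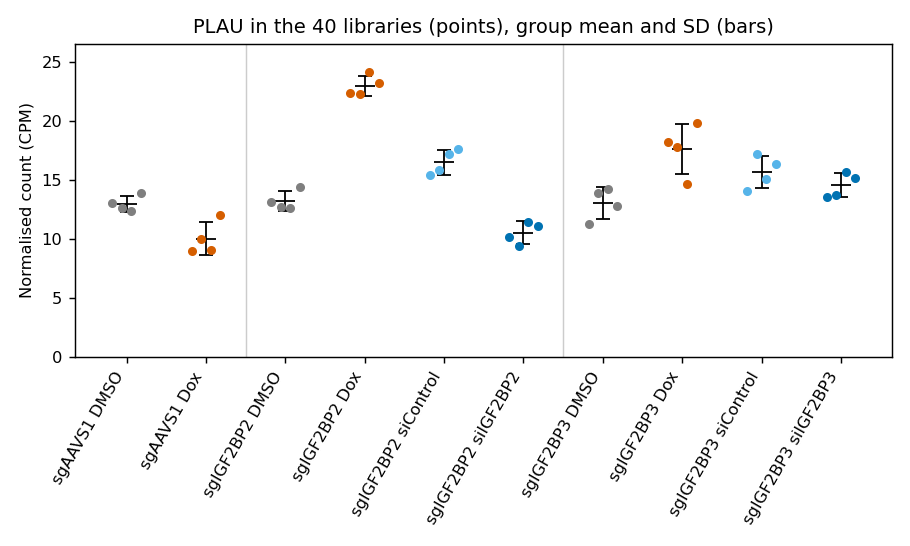
Normalised PLAU count in CPM (y axis, from 0) for the 10 groups of line and treatment (x axis), with a point per library and bars for the mean and SD of 4 libraries. The sgIGF2BP2 Dox libraries are the highest at 22.3 to 24.1 CPM, and the sgAAVS1 Dox and siIGF2BP2 groups are the lowest, with means of 9.99 and 10.5 CPM.

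After siIGF2BP2, PLAU fell. These libraries did not enter the rule that chose PLAU, but the members were chosen with earlier results of these data known. The siControl libraries of sgIGF2BP2 cells held 15.4, 15.8, 17.2 and 17.6 CPM and the siIGF2BP2 libraries 10.1, 9.39, 11.4 and 11.1 CPM. All siIGF2BP2 libraries lay below all siControl libraries. The log2 fold change was -0.64 (SE 0.0905, adjusted p = 3.43e-08), or 64.4% of the control level. Thus PLAU lay higher after induced IGF2BP2 knockout than with DMSO and lower after IGF2BP2 siRNA than with siControl, with IGF2BP2 RNA lower in both. The knockout and siRNA arms differ in agent, time and controls, and their difference was not tested.

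After siIGF2BP3, PLAU did not pass the test. The siControl libraries of sgIGF2BP3 cells held 14.1, 17.2, 15.0 and 16.3 CPM and the siIGF2BP3 libraries 13.6, 13.7, 15.7 and 15.2 CPM, and these ranges overlapped. The log2 fold change was -0.12 (95% interval -0.30 to 0.05, adjusted p = 0.581). Each siRNA pool was used in 1 line, so that pool and line cannot be told apart in the difference between the 2 siRNA effects. For PLAU these effects differed by 0.51 on the log2 scale (siIGF2BP3 minus siIGF2BP2, SE 0.126, adjusted p = 0.00188). When the difference was tested against 1.2-fold in place of 0 it was no longer called (adjusted p = 0.181; 0.000738 to 0.181 over all 24 alternatives).

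Ordered by group mean, PLAU ran from 9.99 ± 1.40 CPM in sgAAVS1 Dox and 10.5 ± 0.936 in siIGF2BP2, whose libraries overlapped, to 12.97 to 13.19 in the 3 DMSO groups. The means of siIGF2BP3, the siControl groups of sgIGF2BP3 and sgIGF2BP2 cells, and sgIGF2BP3 Dox followed at 14.5, 15.6, 16.5 and 17.6 CPM. From sgAAVS1 DMSO up to sgIGF2BP3 Dox the libraries of each pair of neighbours overlapped. The sgIGF2BP2 Dox group (23.0 ± 0.845) overlapped with no other group, and siIGF2BP2 did not overlap with sgAAVS1 DMSO above it. With siControl, PLAU was 0.32 (SE 0.0854) above DMSO in sgIGF2BP2 cells and 0.28 (SE 0.0885) above in sgIGF2BP3 cells on the log2 scale, without a test. Between the lines under siControl the log2 difference was -0.06 (95% interval -0.23 to 0.11, adjusted p = 0.971). An exon of PLAU overlaps C10orf55 on the opposite strand, a gene not among the rows counted, and it is not stated whether the counting used strand.

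PLAUR, the urokinase receptor gene (ENSG00000011422, chr19:43646095-43670547, - strand), lay between 202 and 246 CPM in all 40 libraries. In sgAAVS1 cells the DMSO libraries held 228, 242, 228 and 229 CPM and the Dox libraries 204, 208, 202 and 216 CPM, and the groups did not overlap. PLAUR fell by 0.16 on the log2 scale there (SE 0.0374, adjusted p = 0.00127). In sgIGF2BP2 and sgIGF2BP3 cells the Dox change was -0.03 in each (95% intervals -0.10 to 0.05), and after siIGF2BP2 it was 0.00 (-0.07 to 0.08). After siIGF2BP3 the value was -0.09 (SE 0.0375, adjusted p = 0.241, unadjusted p = 0.0205). The siControl and siIGF2BP2 means of PLAUR in sgIGF2BP2 cells were 230.5 ± 6.69 and 231 ± 9.94 CPM. The fall in sgAAVS1 cells was not called against 1.2-fold (adjusted p = 1.00; 0.000339 to 1.00 over 16 alternatives).

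PLAT, the gene of tissue plasminogen activator (ENSG00000104368, chr8:42175233-42207724, - strand), was low, at 2.32 to 5.07 CPM on 27 to 109 counts. It passed the edgeR test in none of the 12 comparisons, by its unadjusted p in none, and by DESeq2 in none. DESeq2 gave PLAT no adjusted p with Dox in sgIGF2BP3 cells, after siIGF2BP3, or between sgIGF2BP3 and sgAAVS1 cells with DMSO. Its log2 value was 0.20 after siIGF2BP2 (95% interval -0.15 to 0.55, adjusted p = 0.402) and -0.17 after siIGF2BP3 (adjusted p = 0.750), and the difference between these effects was -0.37 (SE 0.253, adjusted p = 0.343). The ranges of all 10 groups overlapped with those of their neighbours in the order of means, from 3.44 ± 0.870 CPM in sgIGF2BP2 DMSO to 4.12 ± 0.580 in siIGF2BP2.

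SERPINE2, the gene of protease nexin-1 (ENSG00000135919, chr2:223975112-224039319, - strand), was the least abundant detected member, at 0.52 to 3.40 CPM on 6 to 44 counts. In sgAAVS1 cells the DMSO libraries held 0.985, 1.56, 2.21 and 1.94 CPM and the Dox libraries 2.97, 2.47, 3.40 and 2.05 CPM, so that the ranges overlapped while all Dox libraries lay above the DMSO mean. SERPINE2 rose there by 0.68 on the log2 scale (SE 0.214, adjusted p = 0.0197). The call was lost on leaving out DMSO replicate 1 (0.51, adjusted p = 0.114), DMSO replicate 2 (adjusted p = 0.0600), Dox replicate 1 (adjusted p = 0.0701) or Dox replicate 3 (adjusted p = 0.0891), and under the test against 1.2-fold (adjusted p = 0.598; 0.0105 to 0.598 over 16 alternatives). In no other comparison did it pass. After siIGF2BP2 its log2 value was -0.43, with a 95% interval of -1.0 to 0.14.

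MMP1, the interstitial collagenase gene (ENSG00000196611, chr11:102789920-102798160, - strand), fell in the control line with Dox and after siIGF2BP2. In sgAAVS1 cells the DMSO libraries held 9.02, 11.1, 9.91 and 11.6 CPM and the Dox libraries 6.95, 7.33, 6.08 and 7.12 CPM. The groups did not overlap, and the log2 fold change was -0.60 (SE 0.121, adjusted p = 0.000162). In sgIGF2BP2 cells the DMSO libraries held 7.20, 8.15, 7.95 and 10.0 CPM and the Dox libraries 8.06, 9.78, 10.3 and 10.4 CPM. In sgIGF2BP3 cells the DMSO libraries held 9.15, 7.42, 8.13 and 8.47 CPM and the Dox libraries 10.1, 8.51, 5.88 and 7.95 CPM. Dox and DMSO overlapped in both of these lines, with log2 values of 0.21 (SE 0.116, adjusted p = 0.217) and -0.03 (SE 0.121, adjusted p = 0.930). Since the Dox effects of the lines were compared when PLAU was chosen, their differences for MMP1 are given without a test, as 0.81 (SE 0.168) for sgIGF2BP2 and 0.57 (SE 0.172) for sgIGF2BP3 cells against sgAAVS1 cells. The fall in sgAAVS1 cells was not called against 1.2-fold (adjusted p = 0.121; 1.5e-05 to 0.121 over 16 alternatives).

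With siControl in sgIGF2BP2 cells MMP1 lay at 8.06, 10.0, 8.69 and 8.14 CPM, and with siIGF2BP2 at 5.63, 5.85, 4.31 and 4.18 CPM. No library overlapped, and MMP1 fell by 0.82 on the log2 scale (SE 0.130, adjusted p = 4.72e-07), the largest fall of any member. In sgIGF2BP3 cells the siControl libraries held 9.77, 7.95, 9.12 and 7.95 CPM and the siIGF2BP3 libraries 6.08, 6.63, 6.89 and 7.11 CPM. These groups did not overlap either, but the log2 value of -0.37 (SE 0.125) missed the threshold (adjusted p = 0.112). Its 95% interval was -0.62 to -0.12 and its unadjusted p 0.00418. The 2 siRNA effects were not shown to differ for MMP1 (difference 0.45, 95% interval 0.08 to 0.81, adjusted p = 0.0751), and without siIGF2BP2 replicate 2 the difference was called (0.54, adjusted p = 0.0396). MMP1 shares exon bases with WTAPP1 on the opposite strand, which is not among the rows counted.

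MMP14, the gene of membrane-type metalloproteinase (ENSG00000157227, chr14:22836557-22849027, + strand), fell after siIGF2BP2 in sgIGF2BP2 cells and rose after siIGF2BP3 in sgIGF2BP3 cells. With siControl in sgIGF2BP2 cells it lay at 169, 183, 179 and 186 CPM and with siIGF2BP2 at 136, 125, 143 and 131 CPM. In sgIGF2BP3 cells siControl libraries held 156, 167, 169 and 157 CPM and siIGF2BP3 libraries 206, 192, 213 and 202 CPM. In neither line did the 2 groups overlap. MMP14 fell by 0.42 after siIGF2BP2 (log2, SE 0.0429, adjusted p = 1.42e-12) and rose by 0.32 after siIGF2BP3 (SE 0.0423, adjusted p = 8.8e-08). Under siControl the lines themselves lay -0.14 apart (sgIGF2BP3 minus sgIGF2BP2, SE 0.0425, adjusted p = 0.831, unadjusted p = 0.00171). The difference between the siRNA effects was 0.74 (SE 0.0603, adjusted p = 4.65e-16), and it was also called against 1.2-fold (highest adjusted p over 24 alternatives 7.93e-10). The rise after siIGF2BP3 was not called against 1.2-fold (adjusted p = 1.00; 9.41e-14 to 1.00 over 16 alternatives).

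The siControl libraries themselves lay below DMSO for MMP14. The DMSO libraries held 187, 228, 218 and 217 CPM in sgIGF2BP2 cells and 195, 216, 207 and 203 CPM in sgIGF2BP3 cells. MMP14 fell by 0.25 (SE 0.0413, adjusted p = 3.97e-06) and by 0.34 (SE 0.0422, adjusted p = 2.86e-09) from DMSO to siControl in these lines. The siIGF2BP3 mean of 203 ± 9.09 CPM was close to that of DMSO in the same line (205 ± 8.77 CPM). Transfection, siRNA and solvent differ together between siControl and DMSO and cannot be told apart. With Dox, MMP14 fell in sgAAVS1 cells, from 221, 234, 234 and 219 to 199, 201, 206 and 206 CPM (log2 -0.16, SE 0.0414, adjusted p = 0.00394). In sgIGF2BP2 and sgIGF2BP3 cells the Dox values were 0.00 (95% interval -0.08 to 0.09) and 0.07 (-0.02 to 0.15). None of the falls from DMSO to siControl or to Dox was called against 1.2-fold (adjusted p of 0.524 to 1.00).

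TIMP1, the gene of a secreted metalloproteinase inhibitor (ENSG00000102265, chrX:47582313-47586789, + strand), had the highest level of the members and its sharpest contrast lay between transfected and untransfected cells. In sgIGF2BP2 cells the DMSO libraries ranged from 1183 to 1218 CPM and the siControl libraries from 837 to 878 CPM. In sgIGF2BP3 cells the ranges were 1166 to 1235 CPM and 808 to 886 CPM. TIMP1 fell by 0.49 (log2, SE 0.0379, adjusted p = 4.55e-17) and by 0.51 (SE 0.0380, adjusted p = 1.25e-17), and both falls were also called against 1.2-fold. All 16 libraries transfected with any siRNA lay below all 24 others, at no more than 886 CPM.

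After siIGF2BP2, TIMP1 fell further. The siControl libraries held 839, 837, 866 and 878 CPM and the siIGF2BP2 libraries 680, 686, 820 and 691 CPM, replicate 3 standing above the other 3 but still below siControl. The log2 fold change was -0.25 (SE 0.0382, adjusted p = 2.01e-07), and -0.32 without replicate 3. After siIGF2BP3 it was -0.07 (95% interval -0.15 to 0.01, adjusted p = 0.410). The siRNA effects differed by 0.18 (SE 0.0540, adjusted p = 0.0127). Neither that difference nor the fall was called against 1.2-fold (adjusted p = 1.00 for each; from 2.71e-05 and from 3.3e-12 over the other alternatives).

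With Dox, TIMP1 rose by 0.12 in sgAAVS1 cells (SE 0.0376, adjusted p = 0.0190), from 1255 to 1297 CPM in the DMSO libraries to 1375 to 1408 CPM, with no overlap. It rose by 0.11 in sgIGF2BP2 cells (SE 0.0377, adjusted p = 0.0367), where the ranges of 1183 to 1218 and 1201 to 1396 CPM overlapped. In sgIGF2BP3 cells the value was 0.00 (95% interval -0.07 to 0.08). The sgAAVS1 call was lost without DMSO replicate 1 (adjusted p = 0.0574) or Dox replicate 1 (adjusted p = 0.0583). The sgIGF2BP2 call was lost in 6 of its 8 left-out fits, those without DMSO replicate 1, 3 or 4 or Dox replicate 1, 2 or 3 (adjusted p of 0.0501 to 0.233), with 0.07 without Dox replicate 2, and in the fit of those 8 libraries alone (adjusted p = 0.0894).

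TIMP3, the gene of a matrix-bound inhibitor (ENSG00000100234, chr22:32801701-32863043, + strand), had 0 counts in each of the 40 libraries. A count of 0 allows up to 3 counts, or 0.121 to 0.299 CPM by library (counting error only). A level below those limits was not detectable in a single library at this depth. Over all 40 libraries together the limit was 0.00533 CPM.

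**Figure D2:**
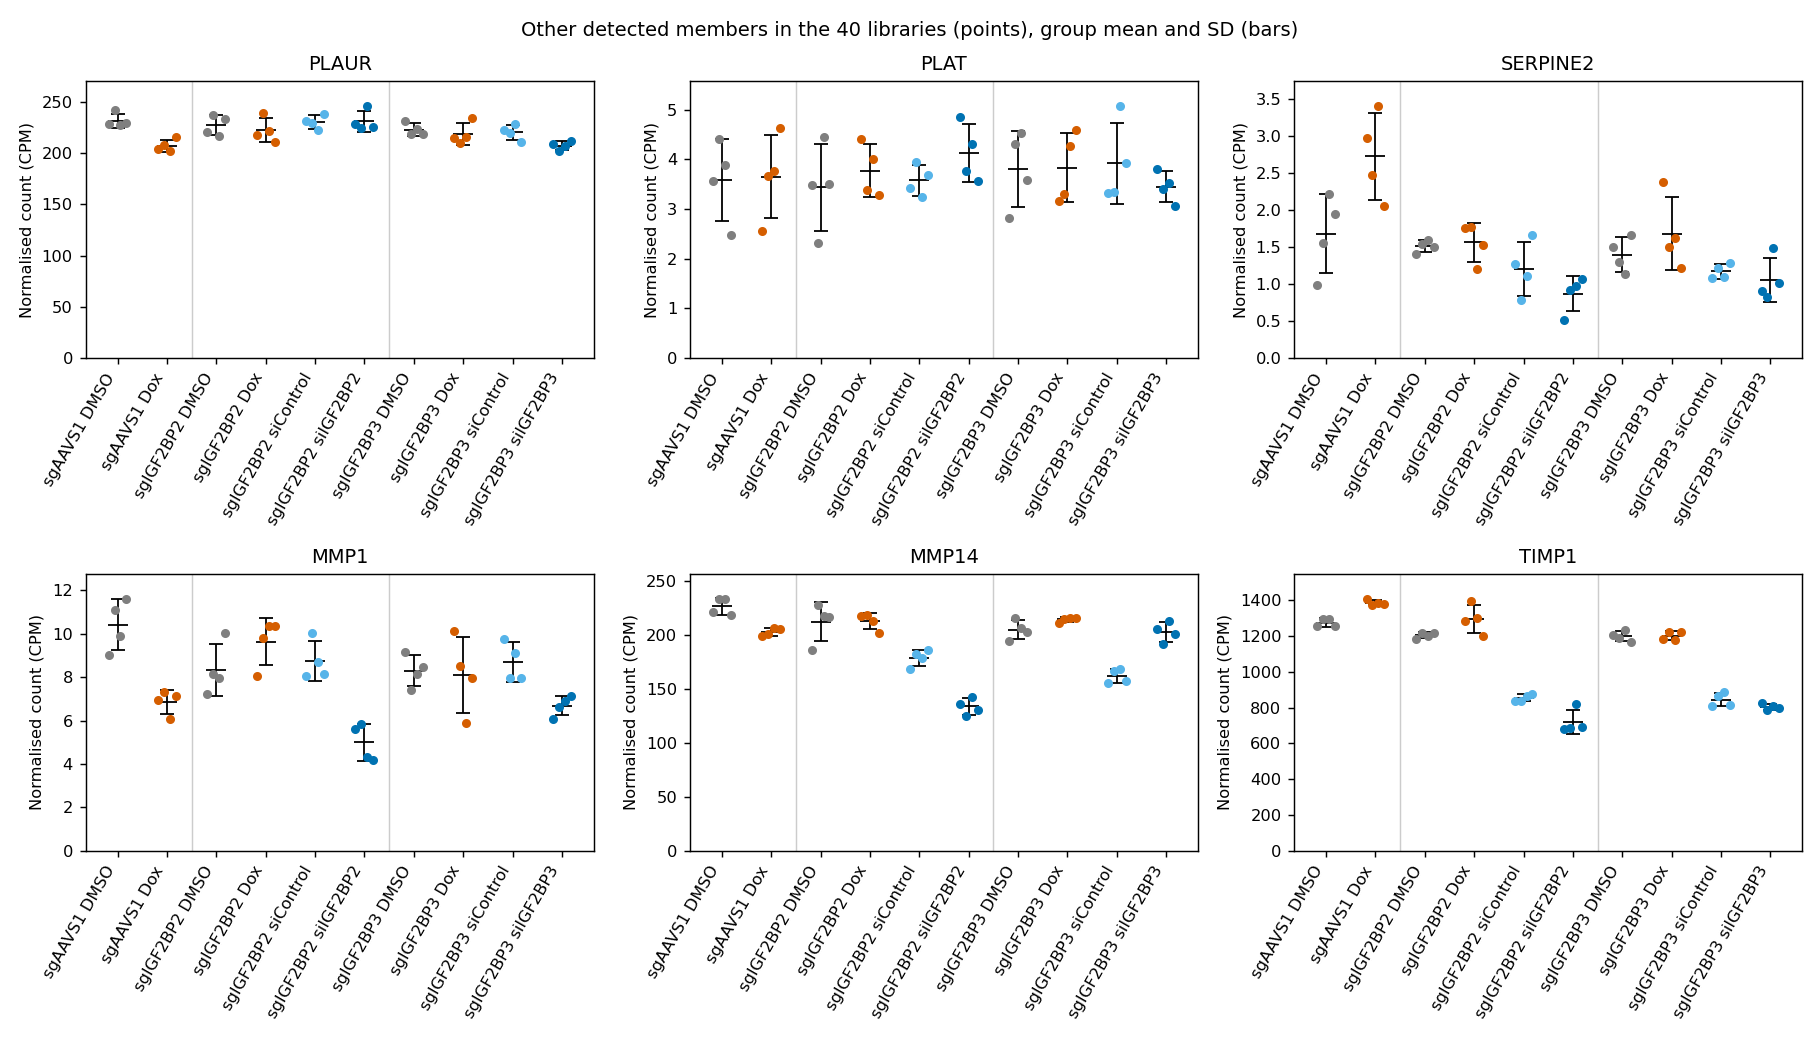
Normalised counts in CPM (y axes, from 0) of PLAUR, PLAT, SERPINE2, MMP1, MMP14 and TIMP1 in the 10 groups (x axes), with a point per library and bars for the mean and SD of 4 libraries. TIMP1 separates the 16 siRNA-transfected libraries, at no more than 886 CPM, from the other 24, and MMP14 is lowest after siIGF2BP2 (mean 134 CPM).

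Per kilobase of exon, the scale on which genes can be set side by side, the mean level over the 40 libraries was 700 CPM per kb for TIMP1, 49.8 for PLAUR and 43.8 for MMP14. PLAU (4.98) and MMP1 (4.10) followed, then PLAT (0.561) and SERPINE2 (0.167). The receptor gene was thus listed at a higher level than either activator gene. The highest group mean was 2.30 times the lowest for PLAU, 2.09 for MMP1, 1.93 for TIMP1 and 1.69 for MMP14, and 1.12 for PLAUR. In bulk RNA, fewer cells that express a gene and less of its RNA per cell cannot be told apart.

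After siIGF2BP2, 4 of 7 members were called, all lower (PLAU, MMP1, MMP14 and TIMP1), where 36.8% of the 11428 genes tested were called. The median log2 change of the 7 members was -0.42, against 0.01 over all genes. After siIGF2BP3, 1 of 7 was called (MMP14, higher), where 2.34% of genes were called, with medians of -0.12 and 0.00. MMP1 and PLAUR, both lower, had an unadjusted p under 0.05 there without being called. In the difference between the siRNA effects 3 of 7 were called (PLAU, MMP14 and TIMP1), against 18.7% of genes. KRT8 rose (0.55, SE 0.0590, adjusted p = 6.9e-12) and KRT18 fell (-0.49, SE 0.0429, adjusted p = 2.31e-15) after siIGF2BP2, and the summed level of the 10 epithelial and colon markers was 205 to 244 CPM against 245 to 249 CPM with siControl. Their part in the members' values was not tested.

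With Dox in sgAAVS1 cells 5 of 6 members were called, where 15.9% of genes were: SERPINE2 and TIMP1 rose and PLAUR, MMP1 and MMP14 fell. This count was 3 without DMSO replicate 1 or without Dox replicate 1, and 0 against 1.2-fold. In sgIGF2BP2 cells 1 of 6 was called (TIMP1), where 20.4% of genes were. That became 0 of 6 without DMSO replicate 1, 3 or 4 or without Dox replicate 1, 2 or 3. It was also 0 of 6 in the fit of only the groups compared and against 1.2-fold. In sgIGF2BP3 cells DESeq2 called none of the members tested, but it gave no adjusted p for PLAT and SERPINE2. By edgeR 0 of 6 was called there and 0 of 6 had an unadjusted p under 0.05, where 2.64% of genes (302) were called. That number of genes was 162 without sgIGF2BP3 DMSO replicate 3, 151 without DMSO replicate 4, 172 without Dox replicate 2 and 108 without Dox replicate 4. The median log2 change of the 6 members was -0.06, 0.06 and 0.01 in the 3 lines.

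From DMSO to siControl, 2 of 6 members were called in each line (MMP14 and TIMP1, lower), against 18.4% of genes in sgIGF2BP2 and 19.4% in sgIGF2BP3 cells. No member was called by edgeR or DESeq2 in the 4 comparisons between lines at the same treatment, in each of which 0.0175% of genes (2) were called. Between sgIGF2BP3 and sgAAVS1 cells with DMSO, DESeq2 gave no adjusted p for MMP1, PLAT and SERPINE2. MMP1, MMP14 and TIMP1 had an unadjusted p under 0.05 in both DMSO comparisons with sgAAVS1, MMP14 also between the lines under siControl, and no other member in any of these 4. The MMP1 mean was 10.4 ± 1.17 CPM in sgAAVS1 DMSO and 8.33 ± 1.2 and 8.29 ± 0.718 CPM in the sgIGF2BP2 and sgIGF2BP3 DMSO groups (adjusted p = 0.639 and 0.220).

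**Figure D3:**
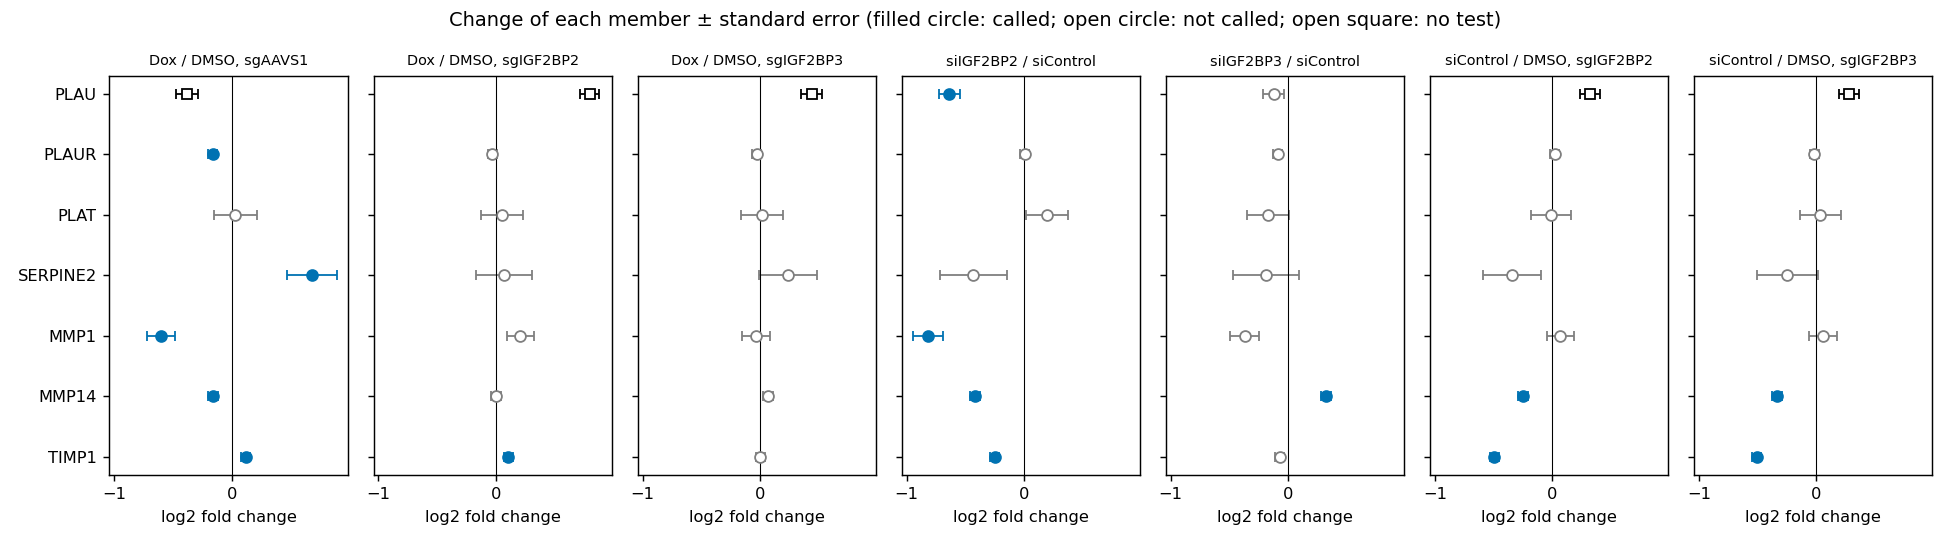
Log2 fold change ± standard error (x axis) of 7 members (y axis) in 7 comparisons (panels). Filled circles passed the edgeR test, open circles did not and open squares (PLAU) have no test. PLAU lies at 0.80 with Dox in sgIGF2BP2 cells and at -0.64 after siIGF2BP2, and MMP14 lies at -0.42 after siIGF2BP2 and 0.32 after siIGF2BP3.

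Other genes of the plasminogen system were taken from a list of 22, of which 12 were abundant enough to test. PLG, the gene of plasminogen itself, had no count in any library. With Dox 3 of 12 rose and 1 fell in sgAAVS1 cells, 1 rose and 2 fell in sgIGF2BP2 cells, and 1 rose in sgIGF2BP3 cells. After siIGF2BP2 1 of 12 rose and 1 fell, and after siIGF2BP3 2 fell. LRP1, the endocytic receptor that clears complexes of urokinase and its inhibitors, rose in all 3 lines, by 0.29 (SE 0.0478, adjusted p = 4.18e-06), 0.22 (SE 0.0482, adjusted p = 0.000419) and 0.28 (SE 0.0480, adjusted p = 5.85e-05). It also rose after siIGF2BP2, from 123 ± 3.24 to 145 ± 11.5 CPM (0.23, SE 0.0464, adjusted p = 4.81e-05).

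S100A10, part of a plasminogen-binding complex at the cell surface, fell after siIGF2BP2 (-0.14, adjusted p = 0.0458) and siIGF2BP3 (-0.22, adjusted p = 0.0154). ENO1, a glycolytic enzyme that can also bind plasminogen, fell with Dox in sgAAVS1 (-0.22, adjusted p = 1.77e-06) and sgIGF2BP2 cells (-0.13, adjusted p = 0.00227) and after siIGF2BP3 (-0.12, adjusted p = 0.0377). SPINT2, an inhibitor of membrane serine proteases, and SERPINB8 rose with Dox in sgAAVS1 cells (0.49, adjusted p = 0.0367, and 0.14, adjusted p = 0.0346). PLGRKT, a plasminogen receptor gene, fell with Dox in sgIGF2BP2 cells (-0.27, adjusted p = 0.0149). SERPINB8 was outside the naming rule and was named after its value was seen.

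Of 21 other matrix metalloproteinase genes 6 were tested. MMP2, the gelatinase that MMP14 activates, did not reach 0.1 CPM in any library. With Dox, MMP25 rose in sgAAVS1 cells (0.46, SE 0.117, adjusted p = 0.00343). MMP10, MMP25 and MMP15 rose in sgIGF2BP2 cells, by 0.60 (SE 0.216, adjusted p = 0.0396), 0.46 (SE 0.119, adjusted p = 0.00294) and 0.40 (SE 0.104, adjusted p = 0.00273), MMP15 being named after its value was seen. None of the 6 passed edgeR's test with Dox in sgIGF2BP3 cells (1 at an unadjusted p under 0.05) or after siIGF2BP3 (0 at an unadjusted p under 0.05). After siIGF2BP2 MMP3, the stromelysin gene, fell from 2.16 ± 0.398 to 0.954 ± 0.408 CPM (log2 -1.17, SE 0.291, adjusted p = 0.000953). The median log2 change of the 6 genes was 0.05, 0.43 and 0.34 with Dox in sgAAVS1, sgIGF2BP2 and sgIGF2BP3 cells, -0.20 after siIGF2BP2 and -0.06 after siIGF2BP3, against 0.00 to 0.01 over all genes in these comparisons. Some of these genes were low, such as MMP3 and MMP10 (median levels of 1.33 and 1.78 CPM). A shift of the 6 genes as a set was not tested.

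Of 9 other inhibitors and activators of metalloproteinases 5 were tested, and edgeR called none with Dox in sgAAVS1, sgIGF2BP2 or sgIGF2BP3 cells (2, 0 and 2 at an unadjusted p under 0.05) or after siIGF2BP3 (2). TIMP2, another inhibitor and the partner of MMP14 in MMP2 activation, had no count. After siIGF2BP2, PCSK7 (0.17, adjusted p = 0.00100) and BSG, which encodes an inducer of metalloproteinases (0.13, adjusted p = 0.000458), rose, and FURIN, the convertase that matures MMP14, fell (-0.15, adjusted p = 0.000495). Of 30 ADAM and ADAMTS genes 10 were tested. ADAM9 rose with Dox in sgAAVS1 (0.34, adjusted p = 3.1e-06) and sgIGF2BP2 cells (0.20, adjusted p = 0.00518), where ADAMTS6 also rose (0.68, adjusted p = 0.0115). No ADAM or ADAMTS gene was called by edgeR with Dox in sgIGF2BP3 cells (3 at an unadjusted p under 0.05). ADAM17, the sheddase of TNF, fell after siIGF2BP2 (-0.25, adjusted p = 5.28e-05) and after siIGF2BP3 (-0.19, adjusted p = 0.0203).

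AP-1 and ETS factors are known regulators of PLAU and MMP genes, and 17 of 18 on the list were tested. With Dox 3 rose and 2 fell in sgAAVS1 cells, 4 rose and 3 fell in sgIGF2BP2 cells and 1 rose in sgIGF2BP3 cells. Over all genes 15.9%, 20.4% and 2.64% were called in these comparisons, and 36.8% after siIGF2BP2. Any link between these factors and the members' values was not tested. FOSB rose in all 3 lines, by 0.43 (SE 0.0607, adjusted p = 2.12e-07), 0.59 (SE 0.0589, adjusted p = 1.59e-12) and 0.24 (SE 0.0617, adjusted p = 0.0164). JUND rose in sgAAVS1 and sgIGF2BP2 cells (0.25 and 0.28), as did JUNB (0.22 and 0.25), and ETS1 rose in sgIGF2BP2 cells (0.13). JUN and FOSL1 fell in sgAAVS1 cells (-0.11 and -0.09), and ELK3, ETV4 and FOSL1 fell in sgIGF2BP2 cells (-0.17, -0.14 and -0.13). After siIGF2BP2 4 rose and 2 fell: ETV1 rose (0.49, SE 0.0983, adjusted p = 4e-05) with FOSB (0.19), JUND (0.15) and ETV4 (0.14), and ETS1 (-0.27, SE 0.0382, adjusted p = 2.94e-08) and JUN (-0.09, adjusted p = 0.0486) fell. JUNB, ETS1 with Dox, FOSL1 in sgIGF2BP2 cells, and JUND and ETV4 after siIGF2BP2 were named after their values were seen. None of the 17 was called by edgeR after siIGF2BP3 (3 at an unadjusted p under 0.05).

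**Figure D4:**
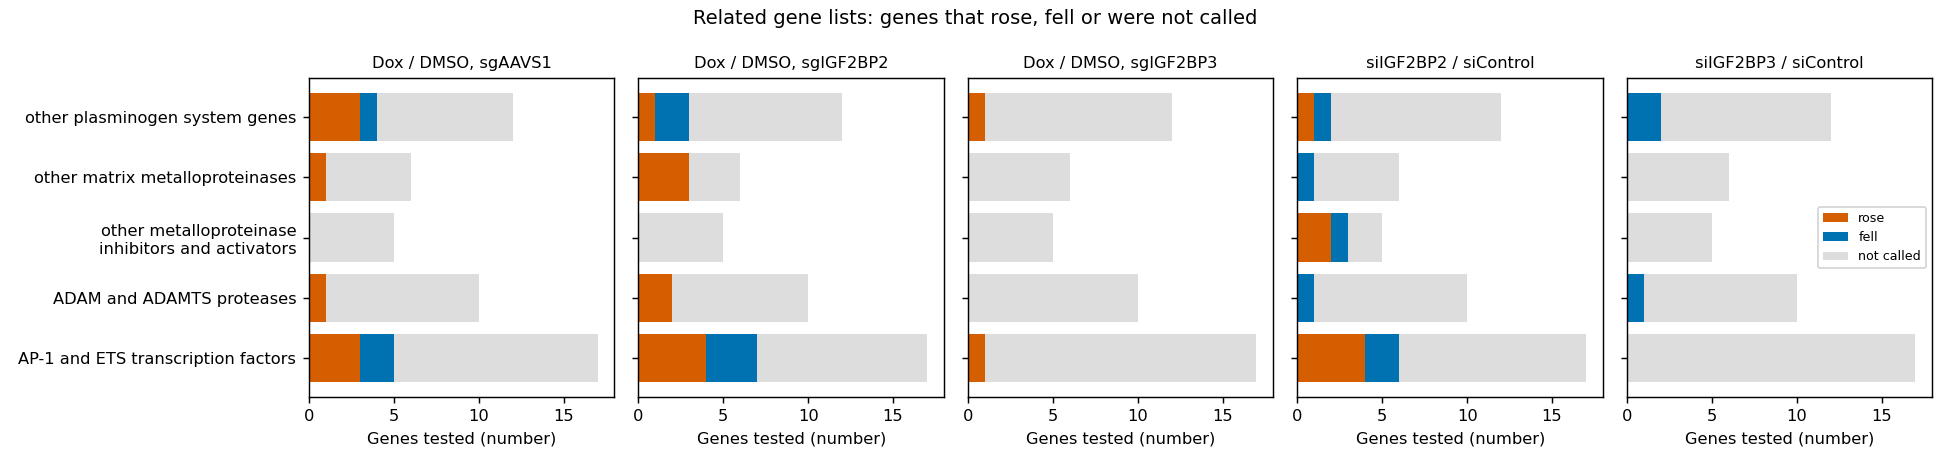
Number of genes tested (x axis) in 5 related lists (y axis) that rose, fell or were not called in the 5 treatment comparisons (panels). After siIGF2BP3 2 of 12 other plasminogen genes and 1 of 10 ADAM and ADAMTS genes fell and no tested gene of these lists rose. Over all genes 2.34% were called there.

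The genes whose 10 group means of log2 CPM followed PLAU most closely, among the 9957 genes averaging 2 or more on that scale, were MAPKBP1 (Pearson r = 0.941 over 10 groups), PDP1 (0.916), STN1 (0.881), POLG (0.879) and TANC2 (0.874). These are descriptions over 10 means that share lines and libraries with PLAU. PDP1 lay at 31.7 ± 2.18 CPM in sgAAVS1 Dox, 61.9 ± 5.30 in sgIGF2BP2 Dox and 30.9 ± 3.34 in siIGF2BP2. MAPKBP1 lay at 85.4 ± 3.44, 110.0 ± 2.38 and 87.1 ± 4.12 CPM in those groups. In sgIGF2BP3 Dox, PDP1 lay at 44.1 ± 4.46 CPM, below its siControl means of 51.65 and 50.88 CPM, which PLAU did not. MAPKBP1 lay at 95.2 ± 4.92 CPM in sgIGF2BP3 Dox and at 93.3 ± 0.887 CPM in sgIGF2BP3 DMSO.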

How the data were processed

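Poly(A) RNA of 40 RKO libraries, made with a directional kit, was measured in 10 groups of 4, taken from the labels. The deposited values are the authors' unnormalized whole-number counts of reads per gene. The submitters' processing notes name bcl2fastq 2.20.0.422, STAR 2.7.5c and hg38. The counting tool, its annotation and its use of strand are not given in the sources used here. Symbols (19895 identifiers matched), exons and coordinates come from GENCODE release v29 (GRCh38).

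The filter on low counts was filterByExpr of edgeR, by group (11428 genes, 99.98% of counts). edgeR 4.0.16 (R 4.3.3) fitted 1 coefficient per group over the 40 libraries after TMM scaling (factors 0.978 to 1.03), with glmQLFTest and Benjamini-Hochberg adjustment over all genes in each of 12 comparisons. A gene was called at an adjusted p under 0.05. Standard errors are the log2 fold change over the square root of F. Total counts were 10018181 to 24822807, and floors cover counting error only. The steps were tested on simulated data.

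The members and lists were chosen with earlier results of these data known. Named genes are the 8 members, IGF2BP2 and IGF2BP3, up to 2 called rises and 2 falls per other list and treatment comparison, and 5 genes like PLAU. Alternatives were RLE and upper-quartile scaling, other filters, DESeq2 1.42.0, 2-group fits, a replicate block, left-out libraries and a 1.2-fold test. Newly made RNA was not analysed here, and 1 gene is not reported here.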

Additional observations from a re-analysis of the deposited data

Results flagged for a closer look

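In 70 groups of 4 libraries (7 detected members in 10 groups), 3 libraries lay far from the other 3 of their group by Dixon's test at the 95% level, which chance gives in about 1 of 20 groups. They were PLAUR in sgAAVS1 DMSO replicate 2 (241.8 CPM), PLAUR in sgIGF2BP2 siIGF2BP2 replicate 3 (245.9 CPM) and TIMP1 in sgIGF2BP2 siIGF2BP2 replicate 3 (819.8 CPM). The last 2 are from 1 library.

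Effects differed between the siRNA arms, each a pool in its own line, in the tested difference (siIGF2BP3 minus siIGF2BP2, log2) for PLAU (0.51), MMP14 (0.74) and TIMP1 (0.18). Between lines, all 4 Dox libraries of the lines compared lay on opposite sides of their DMSO means, with no test of the difference, for PLAU in sgIGF2BP2 against sgAAVS1 cells (1.18), PLAU in sgIGF2BP3 against sgAAVS1 cells (0.82) and MMP14 in sgIGF2BP3 against sgAAVS1 cells (0.23). PLAU was chosen for the first 2 of these. MMP14 had means of 227 CPM with DMSO and 203 CPM with Dox in sgAAVS1 cells. In sgIGF2BP3 cells its means were 205 and 215 CPM. The DMSO levels of the 2 lines lay -0.14 apart on the log2 scale (sgIGF2BP3 minus sgAAVS1), which edgeR did not call (adjusted p = 0.155).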

How the results depend on the processing

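Of 312 alternatives to the 18 called member values, 287 gave the same call and 25 none, 12 of these under the test against 1.2-fold, and no called value changed sign. The 1 newly called value was MMP1 in the siRNA difference, without siIGF2BP2 replicate 2. The calls lost elsewhere were SERPINE2 and TIMP1 with Dox in sgAAVS1 cells and TIMP1 with Dox in sgIGF2BP2 cells.

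Against 1.2-fold the number of genes called with Dox was 50 (sgAAVS1), 117 (sgIGF2BP2) and 8 (sgIGF2BP3), after siIGF2BP2 512, after siIGF2BP3 16, in the difference between siRNA effects 273, from DMSO to siControl 85 and 125, and in the line comparisons 0 or 1. The members called were 0 with Dox in sgAAVS1 and sgIGF2BP2 cells, 0 after siIGF2BP3, and 1 in the siRNA difference and in each line from DMSO to siControl. After siIGF2BP2, PLAU, MMP1 and MMP14 stayed called against 1.2-fold and TIMP1 did not. In fits of only the groups compared, 477 genes were called with Dox in sgIGF2BP3 cells, 465 after siIGF2BP3, 4 between sgIGF2BP3 and sgAAVS1 with DMSO, 4 between the lines under siControl, and 0 members with Dox in sgIGF2BP2 cells. The 2 genes called between sgIGF2BP3 and sgAAVS1 with DMSO became 4 with upper-quartile scaling, 35 with no filter, 4 with a mean of at least 1 CPM and 15 with DESeq2. With no filter 4 were called between sgIGF2BP2 and sgAAVS1 and 13 between the lines under siControl.

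With libraries left out in turn, members called ranged from 3 to 5 with Dox in sgAAVS1 cells, from 0 to 1 in sgIGF2BP2 cells and from 3 to 4 in the siRNA difference. Genes called ranged from 108 to 285 with Dox in sgIGF2BP3 cells, from 1 to 2 between sgIGF2BP2 and sgAAVS1 with DMSO, from 1 to 74 between sgIGF2BP3 and sgAAVS1 (74 without sgAAVS1 DMSO replicate 4), from 0 to 2 between sgIGF2BP3 and sgIGF2BP2 with DMSO, and from 0 to 6 under siControl. Apart from having fewer samples, or a larger change to test, the cause was not tested. No scaling moved the median of all genes by 0.1 on the log2 scale.

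Libraries of the same number did not deviate together (correlations of -0.0896 to 0.0393 over 5 comparisons, with 0 of 4 pairs over 0.1 in each), so the numbers were not taken to pair samples. With the replicate block 6 genes were called between sgIGF2BP3 and sgAAVS1 with DMSO and 5 between the lines under siControl, and the block changed no member's call. SERPINE2, on 6 to 44 counts per library, was the detected member whose depth limited the precision most.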
